A study of Mus musculus with 45 samples.

Results

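The genes described here are 9 interferon-stimulated genes, taken by symbol from the deposited count table: the transcription factors Stat2, Irf9, Irf7 and Irf1, and the effectors Isg15, Ifit1, Ifit3, Oasl2 and Bst2. All 9 were found, each as 1 row, among 28454 listed mouse genes, and each was followed through all 45 libraries. The members were named without a rule on their values, but with earlier results of these data known.

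The study sequenced polyadenylated RNA from cultured mouse mammary tumour lines that differ in how readily they seed the lung, and asked how they differ and how they respond when cysteine and cystine are withheld. MYAZ16.1e, MYAZ12.3i and MYAZ6.6g were isolated from mammary tumours of mice in which the mouse mammary tumour virus (MMTV) promoter, active in mammary epithelium, drives c-MYC. Myc310 came from a tumour of the same transgenic model. LM1, LM2 and LM3 were recovered from lungs of mice that carried Myc310 tumours in the mammary fat pad, and LM1-LM was recovered from lungs after LM1 was injected in its turn. LM2-LM and LM3-LM stand beside LM1-LM as lines of the same class. A derivative of MYAZ12.3i carries NDI1, the yeast single-subunit NADH dehydrogenase. All lines thus share the MMTV-driven c-MYC background, each is 1 isolate grown in culture (the lung-derived lines from dissociated whole lung, for which the sources used here give no sorting step), and each was plated at 250000 cells per well in serum-containing DMEM:F12 with glutamine, insulin, hydrocortisone and EGF. After 24 h the medium was replaced for 6 h by control medium or, with 4 of the lines (LM1, its derivative LM1-LM, Myc310 and MYAZ16.1e), by medium without cysteine and cystine. Each of the 15 groups of line and medium had 3 libraries, which the submitters described as technical replicates, so p-values between lines or media measure only the spread between these cultures.

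Type I interferons are secreted when a cell senses foreign or misplaced nucleic acid. Their receptor activates STAT2, which acts with IRF9 in a complex that binds the interferon-stimulated response element (ISRE), whereas the signal of type II interferon reaches genes through the gamma-activated sequence (GAS). IRF1 and IRF7 bind related elements, and IRF3 can drive several of the same effectors without any interferon being made. The genes reached in this way encode antiviral proteins, and many of them keep a low basal level in cells that have met no virus.

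The promoters of 5 members are shown because their genes took different courses after deprivation, described below, Isg15, Ifit1 and Oasl2 rising, Bst2 falling and Irf1 not passing the test. The sequences come from RefSeq on GRCm38.p6, cover 250 bases before and 50 bases after a start site, run 5′ to 3′ on the strand of the gene, and carry in capitals each match to GAAANNGAAA (the core of the ISRE) or TTCNNNGAA (GAS), searched on both strands. Isg15 lies at chr4:156200769-156201068 on the minus strand, Ifit1 at chr19:34640639-34640938 on the plus strand, Oasl2 at chr5:114896684-114896983 on the plus strand, Bst2 at chr8:71537423-71537722 on the minus strand and Irf1 at chr11:53769764-53770063 on the plus strand.
Isg15: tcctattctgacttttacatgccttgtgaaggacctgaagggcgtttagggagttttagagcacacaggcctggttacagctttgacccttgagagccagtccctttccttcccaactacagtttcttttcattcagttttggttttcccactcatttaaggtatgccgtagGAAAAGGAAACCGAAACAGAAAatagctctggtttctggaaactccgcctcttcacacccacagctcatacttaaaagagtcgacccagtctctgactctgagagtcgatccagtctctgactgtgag
Ifit1: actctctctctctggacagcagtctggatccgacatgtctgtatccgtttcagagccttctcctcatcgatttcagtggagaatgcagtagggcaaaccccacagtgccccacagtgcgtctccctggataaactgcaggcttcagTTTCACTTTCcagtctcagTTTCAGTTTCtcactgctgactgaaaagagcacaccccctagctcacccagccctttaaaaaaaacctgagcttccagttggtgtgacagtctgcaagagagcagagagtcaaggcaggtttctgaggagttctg
Oasl2: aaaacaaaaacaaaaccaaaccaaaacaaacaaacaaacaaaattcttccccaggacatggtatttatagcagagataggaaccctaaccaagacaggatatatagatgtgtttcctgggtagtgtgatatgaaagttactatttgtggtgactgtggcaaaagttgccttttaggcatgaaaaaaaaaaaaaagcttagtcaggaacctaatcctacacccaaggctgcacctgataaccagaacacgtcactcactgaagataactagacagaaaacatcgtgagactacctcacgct
Bst2: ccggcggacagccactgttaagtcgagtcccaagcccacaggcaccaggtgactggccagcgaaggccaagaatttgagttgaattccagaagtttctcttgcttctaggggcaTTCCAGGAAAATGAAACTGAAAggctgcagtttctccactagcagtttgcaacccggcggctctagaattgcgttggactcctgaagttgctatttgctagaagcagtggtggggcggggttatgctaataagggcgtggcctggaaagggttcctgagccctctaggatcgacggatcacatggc
Irf1: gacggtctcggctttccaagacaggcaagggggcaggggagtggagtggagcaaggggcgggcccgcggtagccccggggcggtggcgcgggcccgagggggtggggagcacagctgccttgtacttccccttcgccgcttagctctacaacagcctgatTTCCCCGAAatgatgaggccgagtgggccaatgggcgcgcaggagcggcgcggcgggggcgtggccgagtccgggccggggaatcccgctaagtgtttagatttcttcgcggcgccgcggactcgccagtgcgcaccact

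All 9 members had a promoter in the table, 11 promoters in all since Irf1 and Irf9 have a pair each. The ISRE letters occurred in 5 member genes, against 3.44% of 32851 promoters of the same length. In Isg15 there were 3 overlapping matches, the first base of which lay at -78, -72 and -66 from the start site. Ifit1 held matches at -104 and -85, Ifit3 at -156 and -122, Bst2 at -130 and -124, and Stat2 had a single one at -222. GAS letters were found in 2 genes, Irf1 at -90 and Bst2 at -136, where the match overlaps the first ISRE match, against 8.3% of all promoters. Neither motif occurred in the windows of Oasl2, Irf7 and Irf9. A match is a run of letters and not a shown binding site, and its absence says nothing about sequence outside these windows.

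The members are spread over 8 chromosomes of GRCm38. Stat2 (ENSMUSG00000040033) lies at chr10:128270559-128292849, Irf1 (ENSMUSG00000018899) at chr11:53770014-53778374, Irf7 (ENSMUSG00000025498) at chr7:141262706-141266481 and Irf9 (ENSMUSG00000002325) at chr14:55603571-55610030. The effectors are Isg15 (ENSMUSG00000035692) at chr4:156199424-156200818, Oasl2 (ENSMUSG00000029561) at chr5:114896936-114912234 and Bst2 (ENSMUSG00000046718) at chr8:71534255-71537456, with Ifit1 (ENSMUSG00000034459) at chr19:34640871-34650009 and Ifit3 (ENSMUSG00000074896) at chr19:34583531-34588731 in 1 cluster. Ifit3 is the least certain of them, since 31.7% of its 100-base windows also occur in its near-identical neighbour Ifit3b, which had at most 12 counts in a library. Irf9 overlaps Rnf31 on the same strand, while Irf1 and Irf7 overlap genes on the other strand. The library kit keeps strand, but whether the counting used it was not given in the sources used here.

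Library totals ran from 19517859 to 29019988 counts, with a median of 22899900, so that a level of 1 CPM stands for about 20 to 30 reads. Levels below are CPM, the counts of a gene relative to the scaled size of each library, and differences are log2 fold changes from edgeR's quasi-likelihood test, adjusted by the Benjamini-Hochberg method over all genes tested and called at an adjusted p under 0.05. Krt8 was high in every line, whereas the epithelial genes Cdh1, Cldn3 and Cldn7 were at 0 or nearly so in most groups. The summed level of 7 leukocyte markers stayed between 0.0501 and 1.38 CPM in all libraries, and Ptprc, which encodes CD45, had no count in Myc310, LM1 or LM1-LM in either medium. The 7 fibroblast markers summed to 1.26 to 2.07 CPM in Myc310, with 2 of them over 3 counts, and to 216 to 217 CPM in LM3-LM, with 3 over 3 counts. In bulk RNA, fewer cells that express a gene and less RNA per cell cannot be told apart.

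Compared per kilobase of exon, the members covered a wide range of basal levels. Bst2, a membrane protein that tethers budding virions, was the most abundant, with a median over the 15 groups of 36.9 CPM per kb. Irf1 followed at 4.9 CPM per kb, then Isg15 at 1.33, Stat2 at 1.22 and Irf9 at 1.1 CPM per kb. The remaining genes were close to the floor of detection, with medians of 0.147 CPM per kb for Ifit3, 0.114 for Irf7, 0.0631 for Ifit1 and 0.0512 for Oasl2. For these, single libraries often held fewer than 10 counts, and their fold changes have wide errors.

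**Figure D1:**
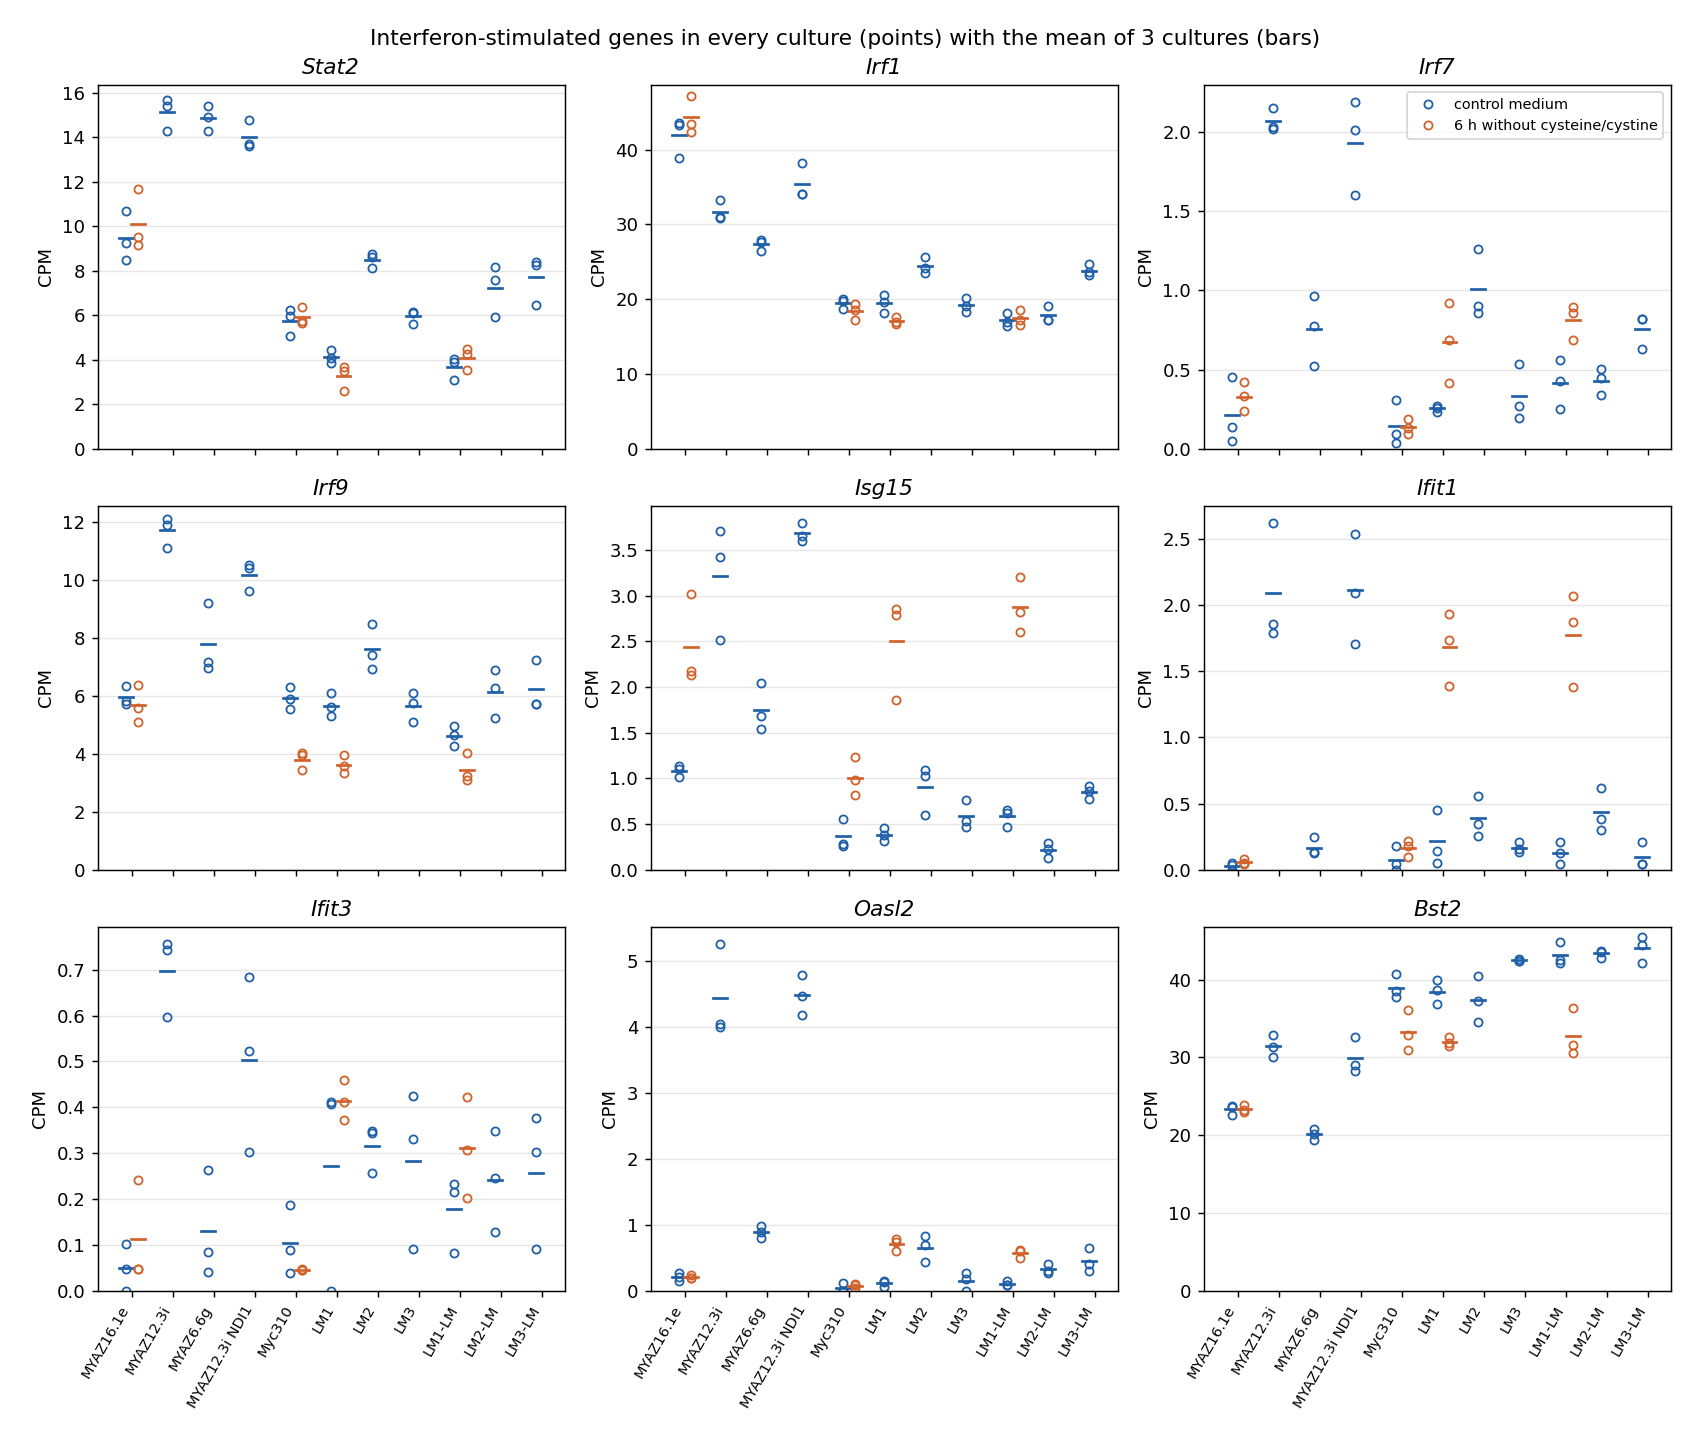
Level of each of the 9 genes in CPM (y axis, from 0, scaled separately for each gene) by line (x axis). Points are single cultures in control medium or after 6 h without cysteine and cystine, in separate colours, and bars are the mean of 3 cultures. MYAZ12.3i and its NDI1 derivative sit highest for most genes, Bst2 is higher in Myc310 and the lung-derived lines than in MYAZ, and the deprived LM1 and LM1-LM cultures stand above their controls for Isg15, Ifit1 and Oasl2.

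In control medium, 8 of the 9 members differed between Myc310 and the MYAZ lines, where 50.9% of all genes did. Of these, 7 were lower in Myc310, a direction called for 27.1% of all genes, and Bst2 was higher. In the LM lines 6 members differed from MYAZ (background 60.8%, with 30.3% higher and 30.5% lower), 5 of them lower, and in the LM-LM lines 7 did (background 62.8%, with 32.3% lower), 6 of them lower. Bst2 was the member higher than in MYAZ each time. Counted in either direction, the share of members called was near the background in LM and above it in Myc310 and LM-LM, and the share called lower was above the background for lower genes in each comparison. The median log2 fold change of the members came to -1.48 for Myc310, where that of all genes tested was -0.02. It was -0.91 for LM (all genes 0) and -0.94 for LM-LM (all genes -0.01). Without MYAZ12.3i, through which Ifit3 had entered, the medians over the 8 members still tested were -0.96, -0.42 and -0.57, and 5, 4 and 4 of them were called. The share of all genes called without that line is not given, so these counts cannot be set against a background. The 3 comparisons share the MYAZ libraries and are not independent of each other.

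Stat2, the STAT that is particular to the type I and type III interferon pathways, had 8.49 to 15.7 CPM in the 9 MYAZ cultures, with a median of 14.3. In Myc310 the cultures had 5.96, 6.25 and 5.05 CPM. The LM cultures ranged from 3.87 to 8.77 CPM with a median of 6.11, and the LM-LM cultures from 3.08 to 8.41 with a median of 6.47. The Myc310 and LM-LM cultures lay below every MYAZ culture, whereas the highest LM culture, of LM2, passed the lowest MYAZ16.1e culture. The log2 fold changes against MYAZ were -1.2 (SE 0.3, adjusted p = 0.00137) for Myc310, -1.08 (SE 0.2, adjusted p = 2.73e-05) for LM and -1.1 (SE 0.2, adjusted p = 1.98e-05) for LM-LM. Among lines, MYAZ12.3i (15.1 ± 0.737 CPM, SD, n = 3) and MYAZ6.6g (14.9 ± 0.551) led and overlapped, MYAZ16.1e followed at 9.49 ± 1.12, and LM1 (4.13 ± 0.283) and LM1-LM (3.68 ± 0.52) were last and overlapped.

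Irf1, an early-induced factor that also acts downstream of type II interferon, was higher in MYAZ than in the other groups without overlap. The MYAZ cultures had 26.4 to 43.5 CPM with a median of 31, the LM cultures 18.1 to 25.7 with a median of 20.1, and the LM-LM cultures 16.4 to 24.7 with a median of 18.2. The 3 Myc310 cultures had 19.7, 18.7 and 20 CPM. No culture of Myc310, LM or LM-LM reached the lowest MYAZ culture. The fold changes against MYAZ were -0.79 (SE 0.16, adjusted p = 0.000124), -0.68 (SE 0.11, adjusted p = 2.94e-06) and -0.79 (SE 0.11, adjusted p = 1.99e-07) on the log2 scale. The highest line was MYAZ16.1e at 41.9 ± 2.6 CPM (SD, n = 3), the line that was lowest for Ifit1 and Ifit3.

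Irf9, the DNA-binding partner of STAT2, moved less. MYAZ cultures spanned 5.73 to 12.1 CPM, LM cultures 5.09 to 8.48 and LM-LM cultures 4.26 to 7.24, while Myc310 had 6.31, 5.54 and 5.89 CPM, so all groups overlapped. The adjusted p values were 0.0441 for Myc310, 0.0145 for LM and 0.000875 for LM-LM, with log2 fold changes of -0.53 (SE 0.22), -0.43 (SE 0.15) and -0.6 (SE 0.15). MYAZ12.3i, at 11.7 ± 0.529 CPM, lay above all other lines without overlap, and LM1-LM, at 4.62 ± 0.342 CPM, lay below them. Without MYAZ12.3i the log2 fold changes were -0.22, -0.12 and -0.3, and none was past the threshold (adjusted p = 0.319, 0.451 and 0.0528). Leaving out any single replicate number also ended the Irf9 call in Myc310 (adjusted p = 0.125, 0.162 and 0.135) and in LM (adjusted p = 0.117, 0.0515 and 0.0501), and with a replicate block the adjusted p in Myc310 was 0.0541.

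Irf7, the factor that amplifies type I interferon production, was at 0.047 to 2.15 CPM in MYAZ, or 1 to 51 counts. MYAZ12.3i had 2.02, 2.15 and 2.03 CPM, MYAZ6.6g 0.526, 0.965 and 0.775, and MYAZ16.1e 0.451, 0.047 and 0.136. Myc310 had 1, 7 and 2 counts. The spread among the MYAZ lines thus covered the whole range of the LM (0.193 to 1.26 CPM) and LM-LM (0.249 to 0.82 CPM) cultures. Irf7 passed the test in Myc310 (log2 fold change -2.76, SE 0.87, adjusted p = 0.00902) and missed it in LM (-0.91, SE 0.49, adjusted p = 0.108) and LM-LM (-0.94, SE 0.49, adjusted p = 0.0965). The Myc310 call was lost without replicate 1 (adjusted p = 0.112) or 3 (0.061) and without MYAZ12.3i (log2 fold change -1.699, adjusted p = 0.0725), and the LM and LM-LM differences turned to 0.15 and 0.12 without MYAZ12.3i.

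Isg15, the ubiquitin-like modifier, was the effector that fell most evenly. MYAZ cultures had 1.02 to 3.71 CPM with a median of 1.68, the LM cultures 0.309 to 1.09 with a median of 0.538, and the LM-LM cultures 0.128 to 0.921 with a median of 0.623. Myc310 had 0.552, 0.264 and 0.28 CPM, which correspond to 14, 6 and 6 counts. Of the lung-derived lines, LM2 alone reached the MYAZ range, its highest cultures meeting those of MYAZ16.1e. The log2 fold changes were -2.44 (SE 0.54, adjusted p = 0.000438) in Myc310, -1.68 (SE 0.33, adjusted p = 7.67e-05) in LM and -1.88 (SE 0.34, adjusted p = 1.72e-05) in LM-LM. They stayed past the threshold without MYAZ12.3i, at -1.93 (adjusted p = 0.00262), -1.17 (0.00429) and -1.37 (0.00101). Fits at the level of the line were less firm. With voom and the line as a random effect Isg15 was past the threshold in LM (adjusted p = 0.0364) and LM-LM (0.0172) but not in Myc310 (0.183), and with counts summed per line it missed it in LM (0.0767) and LM-LM (0.0513).

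Ifit1, which binds viral RNA that lacks 2′-O-methylation, and Oasl2, an oligoadenylate synthetase-like protein, owed most of their MYAZ level to 1 line. Ifit1 had 1.86, 1.79 and 2.62 CPM in MYAZ12.3i, or 45, 39 and 66 counts, against 3, 3 and 6 counts in MYAZ6.6g and 1, 0 and 1 in MYAZ16.1e. Oasl2 had 98, 87 and 132 counts in MYAZ12.3i, at 4.04, 3.99 and 5.25 CPM, against 0.79, 0.881 and 0.978 CPM in MYAZ6.6g and 4, 3 and 8 counts in MYAZ16.1e. In Myc310 they were nearly silent, with 0, 4 and 1 counts of Ifit1 and 3, 0 and 0 counts of Oasl2. Both were called lower in Myc310, Ifit1 at a log2 fold change of -3.31 (SE 1.31, adjusted p = 0.0356) and Oasl2 at -5.28 (SE 1.35, adjusted p = 0.0017). The Ifit1 call was lost without replicate 1 (adjusted p = 0.158) or 3 (0.153) and without a filter beyond 1 count (0.0549). Ifit1 missed the threshold in LM (-1.55, SE 0.71, adjusted p = 0.0606) and passed it in LM-LM (-1.77, SE 0.72, adjusted p = 0.0327), where leaving out any replicate number ended the call (adjusted p = 0.105, 0.0997 and 0.099). Oasl2 was lower in LM (-2.57, SE 0.66, adjusted p = 0.00123) and LM-LM (-2.65, SE 0.66, adjusted p = 0.000901). Without MYAZ12.3i, Ifit1 was no longer called in Myc310 (-0.415, adjusted p = 0.758) and pointed upward in LM (1.34, adjusted p = 0.0802) and LM-LM (1.115, adjusted p = 0.145). Oasl2 kept its call in Myc310 (-3.54, adjusted p = 0.0103) and lost it in LM (-0.825, adjusted p = 0.248) and LM-LM (-0.9, adjusted p = 0.2).

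Ifit3, a partner of Ifit1, did not pass the test in any of these comparisons (log2 fold changes -1.48, -0.01 and -0.39, adjusted p = 0.182, 0.988 and 0.557). Its counts were 18, 13 and 19 in MYAZ12.3i, 6, 2 and 1 in MYAZ6.6g, 0, 1 and 3 in MYAZ16.1e, and 1, 2 and 4 in Myc310. It entered the control fit through MYAZ12.3i and was too low to be tested once that line was left out.

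Bst2 ran opposite to the other members. Its MYAZ cultures had 19.4 to 32.9 CPM with a median of 23.6, against 34.6 to 42.7 with a median of 39.9 in LM and 42.2 to 45.5 with a median of 43.6 in LM-LM. Myc310 had 37.7, 38.5 and 40.7 CPM. Every culture of the Myc310 lineage exceeded every MYAZ culture. The log2 fold changes were 0.64 (SE 0.11, adjusted p = 2.17e-05) in Myc310, 0.66 (SE 0.08, adjusted p = 4.12e-08) in LM and 0.78 (SE 0.08, adjusted p = 1.5e-09) in LM-LM, and without MYAZ12.3i they were 0.84, 0.87 and 0.99.

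Taking the line as the unit leaves 3 values a side. Line means of Stat2, Irf1, Isg15 and Bst2 did not overlap between LM and MYAZ nor between LM-LM and MYAZ, as was the case for 43.3% and 43.7% of all genes. Each of these gave an exact two-sided permutation p of 0.1, the smallest that 3 lines against 3 allow. LM1, LM2 and LM3 all descend from Myc310, and LM1-LM from LM1. These lines are thus not independent of each other, although the permutation and the line-level fits below treat them so. For Stat2 the line means were 13.2 ± 3.2 CPM (SD, n = 3) in MYAZ, 6.2 ± 2.2 in LM and 6.21 ± 2.21 in LM-LM. For Bst2 they were 25 ± 5.85, 39.5 ± 2.67 and 43.5 ± 0.471 CPM. For the other 5 members the line means overlapped, with exact permutation p from 0.2 to 1. When counts were summed per line before fitting, 2 members were called in LM and 2 in LM-LM, Irf1 (adjusted p = 0.0462 and 0.0247) and Bst2 (adjusted p = 0.0146 and 0.00662), while Stat2 missed the threshold (adjusted p = 0.0697 and 0.0628). Myc310 is itself 1 line, so its line-level fit assumes that it varies as the other groups' lines do. With voom and the line as a random effect, the same genes were the 2 called there, Irf1 at an adjusted p of 0.0145 and Bst2 at 0.00681, and Stat2 missed it (adjusted p = 0.0895). Shares of all genes called in these line-level fits are not given, so the counts of members have no background.

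**Figure D2:**
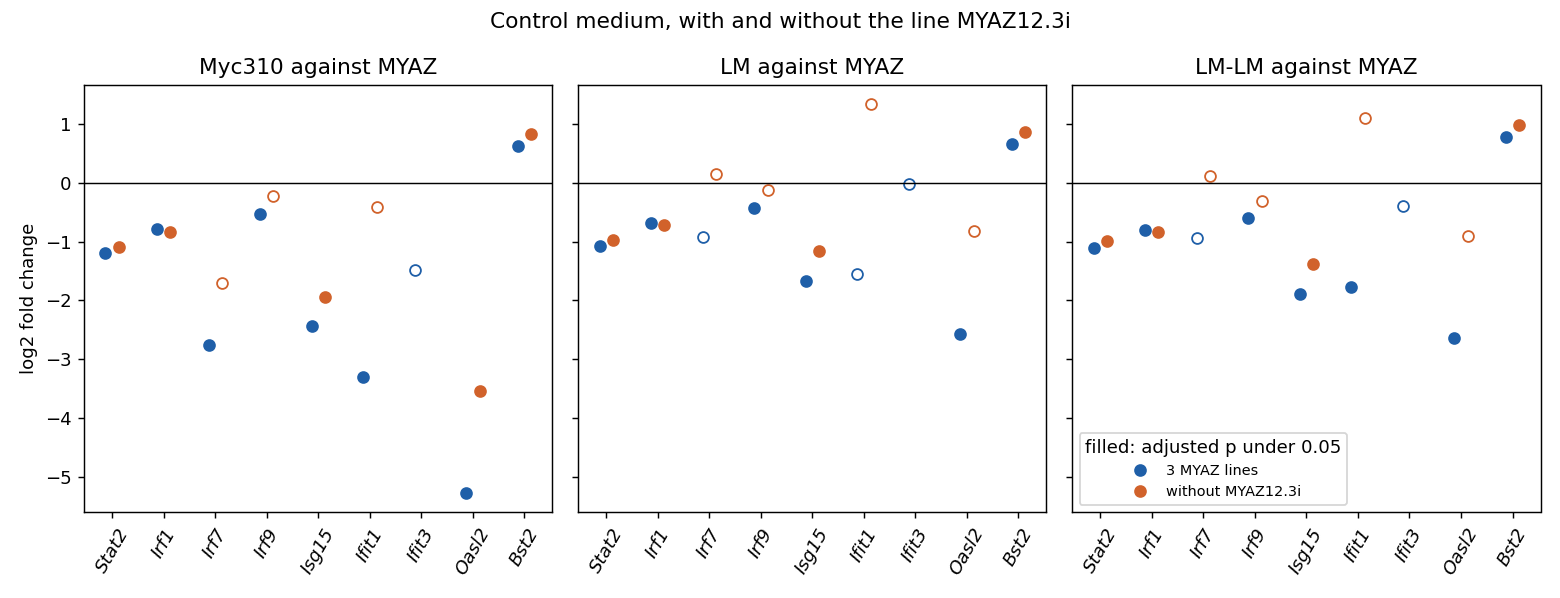
Log2 fold change of each gene against the MYAZ lines in control medium (y axis) for Myc310, LM and LM-LM (panels), with all 3 MYAZ lines and without MYAZ12.3i, filled where the adjusted p was under 0.05. Stat2, Irf1, Isg15 and Bst2 keep place and call, whereas Ifit1 and Irf7 move to or above 0 in LM and LM-LM when MYAZ12.3i is left out.

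MYAZ12.3i had the highest mean of the 10 lines in control medium for 7 of the 9 members, all but Irf1 and Bst2, where it was the highest for 18.7% of all genes tested. For 6 members its 3 cultures lay above every culture of the other 9 lines, which held for 9.31% of genes. Stat2 was the exception among the 7, since its MYAZ12.3i cultures overlapped those of MYAZ6.6g. MYAZ12.3i also had the lowest summed level of 9 epithelial markers, at 333 to 346 CPM. MYAZ6.6g had 701 to 736 CPM and MYAZ16.1e 1130 to 1160. By number of these markers over 3 counts it was not lowest, with 6, against 6 in MYAZ6.6g and 7 in MYAZ16.1e. Myc310, LM1 and LM2 had 3 and LM3 had 4, although their sums were higher, at 1360 to 1380 CPM in Myc310. Epcam, Cdh1, Krt5, Cldn3 and Cldn7 were not detected in control Myc310. MYAZ12.3i had more of the 7 fibroblast markers, at 90.6 to 94 CPM against 29.5 to 31.7 in MYAZ6.6g and 6.11 to 8.31 in MYAZ16.1e. Fibroblast markers reached 216 to 217 CPM in LM3-LM, which ranked between 1 (Bst2) and 8 (Ifit1) among the 10 lines for single members. The part of these differences in the level of the members was not tested.

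The cultures of the NDI1 derivative overlapped those of its parent MYAZ12.3i for every member but Irf1, which lay higher, and Irf9, which lay lower. Of all genes, 34.7% had no overlap in either direction. Ifit1 had 1.71, 2.09 and 2.54 CPM in the derivative, Oasl2 4.47, 4.18 and 4.78, Isg15 3.8, 3.65 and 3.6, and Irf7 2.19, 1.6 and 2.01 CPM. These values overlapped those of the parent for each gene. None of the 9 members passed edgeR's test (background 17.4%, made of 8.14% higher and 9.27% lower) or DESeq2's, and 2 had an unadjusted p under 0.05. Irf1 was the first, with 38.2, 34 and 34 CPM against 30.8, 33.2 and 31 (log2 fold change 0.15, SE 0.06, adjusted p = 0.0787). Irf9 was the other, with 10.5, 9.62 and 10.4 CPM against 11.9, 11.1 and 12.1 (-0.21, SE 0.08, adjusted p = 0.101). For Ifit1 and Oasl2 the differences were 0.02 (SE 0.23) and 0.01 (SE 0.15) on the log2 scale. Of 85 other genes of the pathway tested here, 4 were higher and 11 lower, or 2 and 7 with DESeq2, shares near the background. The called genes with the largest changes included Sp100 (-1.11, adjusted p = 0.03), a nuclear body protein, Oas1a (-0.92, adjusted p = 0.0135), an oligoadenylate synthetase, and Ifi27 (-0.74, adjusted p = 2.18e-05).

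LM1, LM2 and LM3 were set against Myc310, from which they were derived, and were not tested against each other. LM1-LM was set against its parent LM1. In LM2, 7 of 9 members were higher (background 23.7% in that direction), whereas LM1 and LM3 had 1 called member each, against 32.9% and 45.6% of all genes in either direction. All 3 comparisons share the Myc310 libraries. In LM2 the cultures lay above all Myc310 cultures for 8 of the 9 genes, Bst2 being the exception, where 53.3% of all genes had no overlap in either direction.

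Among the factors, Stat2 had 8.13, 8.77 and 8.61 CPM in LM2 against 5.96, 6.25 and 5.05 in Myc310 (log2 fold change 0.58, SE 0.12, adjusted p = 0.000103). Irf1 had 23.5, 25.7 and 24.2 CPM against 19.7, 18.7 and 20 (0.35, SE 0.06, adjusted p = 1.94e-05). Irf7 rose from 10 counts over the 3 Myc310 cultures to 70 in LM2, a ratio of 6.99 (95% counting interval 3.58 to 15.2, log2 fold change 2.77, adjusted p = 2.15e-05). Irf9 was higher by a smaller step (0.38, SE 0.12, adjusted p = 0.0103), which was lost without replicate 2 or 3 (adjusted p = 0.0895 and 0.161). Among the effectors, Isg15 had 0.599, 1.03 and 1.09 CPM against 0.552, 0.264 and 0.28 (1.29, SE 0.33, adjusted p = 0.00176). Oasl2 had 45 counts in LM2 and 3 in Myc310, a ratio of 15 with a counting interval from 4.81 to 75.3 (adjusted p = 1.66e-05), and Ifit1 had 27 and 5, a ratio of 5.39 (2.05 to 17.9, adjusted p = 0.00751). Isg15 lost its call without replicate 2 or 3 (adjusted p = 0.0714 and 0.0892), and Ifit1 lost its own without replicate 1 or 3 (adjusted p = 0.224 and 0.0513). These intervals cover counting error only, since the reads carry no molecular identifiers. Ifit3 had 22 and 7 counts (adjusted p = 0.0898), and Bst2 did not pass the test (-0.04, adjusted p = 0.594).

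LM1 was lower than Myc310 for Stat2, at 3.87, 4.43 and 4.08 CPM (log2 fold change -0.5, SE 0.13, adjusted p = 0.00325), a call that was lost without replicate 1 (adjusted p = 0.0747). The low-level effectors had differences of 1.53 (Ifit1, adjusted p = 0.157), 1.36 (Ifit3, 0.213) and 1.25 (Oasl2, 0.352), on 14 against 5, 17 against 7 and 7 against 3 counts. In LM3 the called member was Bst2, at 42.7, 42.4 and 42.4 CPM (0.14, SE 0.05, adjusted p = 0.0128), which was not called without replicate 1 or 2 (adjusted p = 0.108 and 0.0622). Members with few counts pointed upward there without a call, Irf7 by 1.19 (adjusted p = 0.102), Isg15 by 0.66 (0.134) and Ifit1 by 1.16 (0.274). Ifit3 did so by 1.48 (0.124) and Oasl2 by 1.72 (0.111), while Stat2 (0.07), Irf1 (-0.01) and Irf9 (-0.05) were near 0. LM1-LM differed from LM1 in Bst2 alone (0.17, SE 0.05, adjusted p = 0.0212, background 10.9%), with 44.8, 42.5 and 42.2 CPM against 38.7, 36.8 and 39.9, and any of the 3 leave-outs ended that call (adjusted p = 0.17, 0.149 and 0.0565).

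Around the 9 members, 120 further pathway symbols were looked up, 108 matched a row, and 88 were high enough to be tested in control medium. In Myc310 38 of them were lower than in MYAZ and 13 higher, in LM 36 and 22, and in LM-LM 39 and 22. Over all genes 27.1%, 30.5% and 32.3% were lower and 23.8%, 30.3% and 30.5% higher in the 3 comparisons. In Myc310 both chemokines tested were lower, and 2 of 4 ISG15 conjugation genes with none higher. Cxcl10, a chemokine that attracts T cells, had no count in the 3 Myc310 cultures, where MYAZ12.3i had 32 to 70 counts, MYAZ16.1e 8 to 31 and MYAZ6.6g 6 to 9. Of 7 GTPases tested 6 were lower, among them Irgm2 (log2 fold change -3.76, SE 0.64, adjusted p = 1.43e-05) and Gbp3 (-3.35, SE 0.48, adjusted p = 1.03e-06), which act against intracellular pathogens. Of 8 receptors and kinases 5 were lower and 1 higher, with Ifngr2, a chain of the type II interferon receptor, at -1.85 (SE 0.17, adjusted p = 2.56e-10) and Ifnar2, a chain of the type I receptor, at -0.91 (SE 0.13, adjusted p = 1.43e-06).

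Ube2l6, the conjugating enzyme for ISG15, had one of the clearest separations. It had 18.9 ± 1.17 CPM (SD, n = 3) in MYAZ12.3i, 11.4 ± 0.218 in MYAZ6.6g and 7.39 ± 0.313 in MYAZ16.1e, against 0.599 ± 0.257 in Myc310 and 0.674 ± 0.193 in LM1. The log2 fold change was -4.39 in Myc310 (SE 0.5, adjusted p = 2.31e-08), -3.77 in LM (SE 0.3, adjusted p = 4.52e-12) and -4.29 in LM-LM (SE 0.31, adjusted p = 5.06e-13). Over all 7 lines of the Myc310 lineage the cultures had 0.205 to 1.32 CPM of Ube2l6, below the 7.09 to 20.1 CPM of the MYAZ cultures. Some genes went the other way, as Bst2 did. Irf8, a factor best known from myeloid cells, was higher by 1.2 in Myc310 (SE 0.35, adjusted p = 0.00481), 1.69 in LM (SE 0.26, adjusted p = 2.53e-06) and 1.93 in LM-LM (SE 0.27, adjusted p = 2.9e-07). The secreted glycoprotein Lgals3bp was higher by 3.22 in LM (SE 0.26, adjusted p = 1.05e-11) and by 3.05 in LM-LM (SE 0.26, adjusted p = 2.88e-11).

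Against Myc310, 51 of the 88 genes were higher and 8 lower in LM2, 42 higher and 9 lower in LM3, and 21 higher and 9 lower in LM1. Over all genes 23.7%, 24.1% and 16.4% were higher. Between LM1-LM and LM1, 4 were higher and 3 lower. In LM2 26 of 42 effectors were higher and 1 lower, with 9 of 13 sensors and adaptors and 5 of 7 GTPases higher as well. Of 8 receptors and kinases 1 was higher and 4 were lower. Ifih1, the sensor of long double-stranded RNA known as MDA5, had 2.24 ± 0.614 CPM (SD, n = 3) in LM2, 2.15 ± 0.172 in LM3 and 0.891 ± 0.0421 in LM1, against 0.139 ± 0.0843 in Myc310. Its log2 fold change was 3.93 in LM2 (SE 0.42, adjusted p = 1.1e-09) and 3.88 in LM3 (SE 0.42, adjusted p = 1.36e-09). Batf2, a transcription factor induced by interferon, had 57 to 69 counts in LM2 and 56 to 72 in LM3 against 0 to 1 in Myc310. Ifih1 and Batf2 were thus about as high in LM3 as in LM2. Of the 9 members 1 was called in LM3 and 7 in LM2, and those with few counts pointed upward in LM3 without a call.

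Withholding cysteine and cystine for 6 h raised Isg15 in all 4 lines tested. Ifit1 and Oasl2, near 0 in control medium in LM1 and LM1-LM, had higher counts in the deprived cultures of these lines. Of the transcription factors, Irf7 was called higher in LM1, Irf9 fell in Myc310, LM1 and LM1-LM, and Stat2 and Irf1 did not pass the test in any line. Bst2, at the high end of the range, fell by a small step in the same 3 lines in which Irf9 fell. Of 8 members tested, MYAZ16.1e had 1 called (background 53.7%), Myc310 3 (66.8%, of which 32.8% higher), LM1 6 (71.1%) and LM1-LM 5 (72.4%), so the counts are near or below the background. Genes more than 2-fold higher were rarer, at 3.78%, 6.93%, 9.06% and 9.76% of all genes. Ifit3 was too low for the test. Ifit1 and Oasl2 exceeded 10 counts only in deprived LM1 and LM1-LM cultures and so entered the fit through these groups, so a gene that did not rise there would not have been tested and their calls count for less. The counts are given in full, with the adjusted p of a fit without a filter beyond 1 count.

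**Figure D3:**
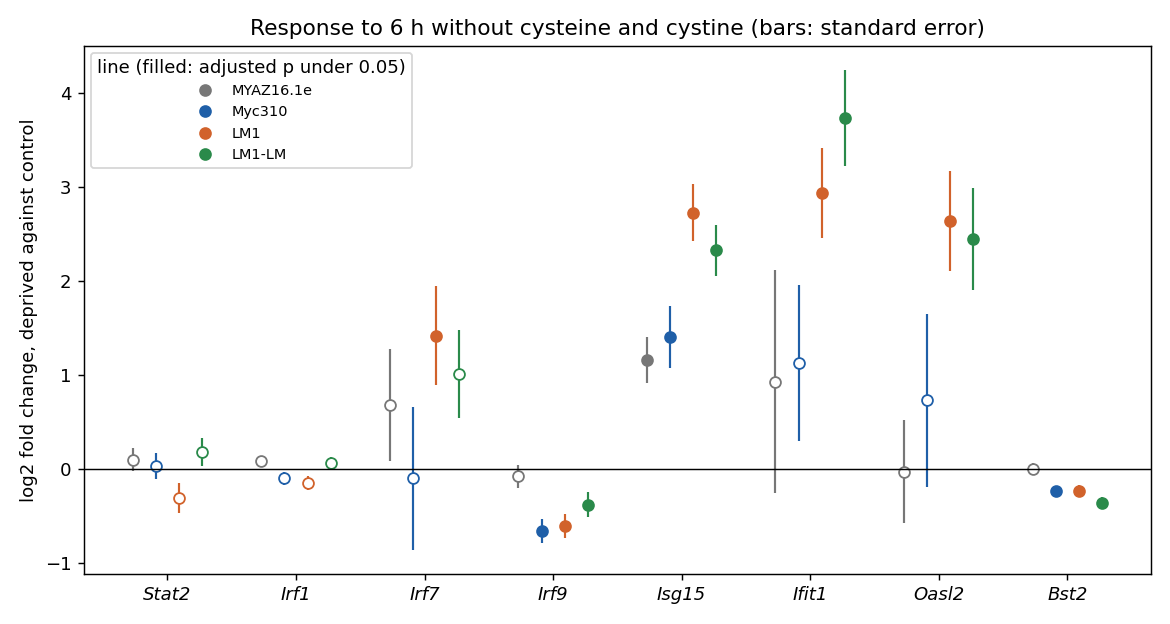
Log2 fold change after 6 h without cysteine and cystine (y axis, bars give the standard error) for the 8 tested genes (x axis) in 4 lines, filled where the adjusted p was under 0.05. Isg15 is above 0 in all 4 lines, Ifit1 and Oasl2 are filled in LM1 and LM1-LM, and Irf9 and Bst2 lie below 0 in Myc310, LM1 and LM1-LM.

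Isg15 went from 1.1, 1.13 and 1.02 CPM to 3.02, 2.13 and 2.17 in MYAZ16.1e (log2 fold change 1.16, SE 0.25, adjusted p = 0.000211). In Myc310 it went from 0.552, 0.264 and 0.28 to 0.814, 0.979 and 1.23 CPM (1.41, SE 0.33, adjusted p = 0.000368). The control and deprived cultures did not overlap in either line. In LM1 the change was from 0.309, 0.452 and 0.375 to 1.86, 2.79 and 2.85 CPM (2.73, SE 0.3, adjusted p = 1.78e-09), or from 24 to 163 counts, a ratio of 6.55 (95% counting interval 4.25 to 10.5). In LM1-LM it was from 0.473, 0.623 and 0.653 to 2.6, 2.82 and 3.2 CPM (2.33, SE 0.27, adjusted p = 5.44e-09), a ratio of 4.9 (3.47 to 7.08). The lung-derived lines started below MYAZ16.1e and ended at about its deprived level, near the level that MYAZ12.3i had in control medium (3.71, 2.52 and 3.42 CPM).

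The rise of Isg15 itself differed between lines. It was larger than in MYAZ16.1e by 1.57 on the log2 scale in LM1 (SE 0.4, adjusted p = 0.00151) and by 1.16 in LM1-LM (SE 0.37, adjusted p = 0.00947), while in Myc310 the difference was 0.25 (SE 0.41, adjusted p = 0.678). Over all genes the response differed from MYAZ16.1e in 40.3% for Myc310, 52.2% for LM1 and 54.8% for LM1-LM, and among the 8 members in 2, 5 and 3. The 2 of Myc310 were lower, as were 20.4% of all genes, while 19.8% were higher. Leaving out 1 replicate number gave 0 to 2, 1 to 3 and 1 to 2 called members, and without a filter beyond 1 count 2 were called in LM1. The 3 differences share the MYAZ16.1e libraries. Without replicate 2 or 3 the Isg15 difference in LM1-LM missed the threshold (adjusted p = 0.0807 and 0.0738).

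Ifit1 had 1, 10 and 3 counts in control LM1 and 30, 38 and 42 in deprived LM1, at 1.39, 1.74 and 1.93 CPM. In LM1-LM it had 3, 5 and 1 counts in control and 36, 37 and 44 in deprived medium, at 1.38, 1.87 and 2.07 CPM. The groups were far apart in both lines. The ratio was 7.58 in LM1 (95% counting interval 4.33 to 14.3, log2 fold change 2.94, adjusted p = 2.79e-06) and 13.3 in LM1-LM (6.76 to 29.8, log2 fold change 3.74, adjusted p = 1.42e-07). Without the filter the adjusted p was 7.55e-09 in LM1 and 3.98e-12 for LM1-LM. MYAZ16.1e had 2 counts over its control cultures and 4 over the deprived ones, a ratio of 2.09 with an interval from 0.3 to 23.1. Myc310 had 5 and 11, a ratio of 2.31 with an interval from 0.739 to 8.47. Both intervals include no change, so a rise in those lines was not shown, and the few control counts leave its size open. The difference in response from MYAZ16.1e was 2.01 in LM1 (SE 1.68, adjusted p = 0.34) and 2.81 in LM1-LM (SE 1.73, adjusted p = 0.177). Without replicate 2, which held 4 of the 5 control counts, Ifit1 was called higher in deprived Myc310 (log2 fold change 2.92, adjusted p = 0.0284).

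Oasl2 behaved like Ifit1. It had 1, 3 and 3 counts in control LM1 and 16, 17 and 13 in the deprived cultures, a ratio of 6.34 (95% counting interval 2.84 to 16.6, log2 fold change 2.64, adjusted p = 5.54e-05). In LM1-LM the counts were 2, 2 and 3, then 13, 12 and 13, a ratio of 5.55 (2.45 to 14.7, log2 fold change 2.45, adjusted p = 0.000185). Without the filter the adjusted p was 0.000569 and 0.00189. No overlap was seen in either line. MYAZ16.1e had 15 counts before and 14 after, a ratio of 0.976 (0.437 to 2.17), and Myc310 had 3 and 5, a ratio of 1.75 (0.34 to 11.2). The response of Oasl2 differed from that of MYAZ16.1e by 2.67 in LM1 (SE 0.79, adjusted p = 0.0054) and by 2.48 in LM1-LM (SE 0.8, adjusted p = 0.00934), and in the fit without the filter that of LM1 was past the threshold (adjusted p = 0.0332) and that of LM1-LM was not (0.0537). With the filter, that of LM1-LM missed the threshold without any one of the replicate numbers (adjusted p = 0.0511, 0.0625 and 0.0787), and that of LM1 without replicate 1 or 3 (adjusted p = 0.06 and 0.0522).

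Ifit3, next to Ifit1 in the genome and with ISRE letters of its own, had 17 counts in control and 27 in deprived LM1, a ratio of 1.53 (0.805 to 3). In LM1-LM it had 12 and 21, a ratio of 1.79 (0.84 to 3.99). The cultures overlapped in both lines.

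Irf7 had 5, 6 and 5 counts in control LM1 and 9, 15 and 20 in deprived LM1, a ratio of 2.65 (95% counting interval 1.47 to 5.04, log2 fold change 1.42, adjusted p = 0.0171). Irf7, too, passed the filter mostly through the deprived LM1 and LM1-LM cultures, and without the filter the adjusted p was 0.0323. The call did not hold without replicate 2 (adjusted p = 0.0542) or 3 (0.204). In LM1-LM the counts were 10, 6 and 12, then 18, 17 and 19, without overlap, and the test missed the threshold (1.01, SE 0.47, adjusted p = 0.0532). The difference of either line from MYAZ16.1e did not pass (adjusted p = 0.485 and 0.769).

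Neither Stat2 nor Irf1 passed the test after deprivation in any line. Stat2 had log2 fold changes of 0.1 (SE 0.12) in MYAZ16.1e, 0.03 (SE 0.14) in Myc310, -0.31 (SE 0.16) in LM1 and 0.18 (SE 0.15) in LM1-LM, with adjusted p of 0.542, 0.873, 0.0815 and 0.302. In LM1 it went from 3.87, 4.43 and 4.08 to 3.67, 2.6 and 3.49 CPM, all below the controls, and was called lower under upper-quartile scaling (-0.39, adjusted p = 0.03). Irf1 changed by 0.08 (SE 0.06), -0.1 (SE 0.07), -0.15 (SE 0.07) and 0.06 (SE 0.07). In LM1, where it went from 20.6, 19.6 and 18.1 to 17, 16.7 and 17.6 CPM, its adjusted p of 0.0567 became 0.0386 under DESeq2-type (RLE) scaling and 0.00493 under upper-quartile scaling. Its change in LM1 differed from that in MYAZ16.1e by -0.23 (SE 0.09, adjusted p = 0.0335), a call lost without replicate 1 or 2 (adjusted p = 0.135 and 0.205).

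Irf9 fell from 6.31, 5.54 and 5.89 to 3.94, 4.01 and 3.43 CPM in Myc310 (log2 fold change -0.66, SE 0.13, adjusted p = 4.2e-05). In LM1 it fell from 6.08, 5.6 and 5.3 to 3.58, 3.33 and 3.95 CPM (-0.61, SE 0.13, adjusted p = 0.000138), and in LM1-LM from 4.26, 4.94 and 4.66 to 4.01, 3.08 and 3.24 CPM (-0.38, SE 0.13, adjusted p = 0.0128). No deprived culture overlapped its controls. The LM1-LM call was lost without replicate 2 or 3 (adjusted p = 0.202 and 0.105). In MYAZ16.1e, Irf9 had 5.81, 5.73 and 6.35 CPM before and 6.37, 5.11 and 5.58 after (-0.08, SE 0.12, adjusted p = 0.62). Set against MYAZ16.1e, the response of Irf9 differed by -0.58 for Myc310 (SE 0.18, adjusted p = 0.00933) and by -0.53 for LM1 (SE 0.18, adjusted p = 0.0138), and the difference for LM1-LM was -0.3 (adjusted p = 0.171). The first 2 of these calls were lost in leave-outs, without replicate 1 or 3 for Myc310 (adjusted p = 0.132 and 0.0665) and without replicate 1 or 2 for LM1 (adjusted p = 0.211 and 0.0753).

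Bst2 fell from 37.7, 38.5 and 40.7 to 30.9, 36.1 and 32.9 CPM in Myc310 (log2 fold change -0.24, SE 0.06, adjusted p = 0.000529). LM1 went from 38.7, 36.8 and 39.9 to 31.9, 31.5 and 32.6 CPM (-0.23, SE 0.06, adjusted p = 0.000788), and LM1-LM from 44.8, 42.5 and 42.2 to 30.5, 31.6 and 36.3 CPM (-0.36, SE 0.06, adjusted p = 1.32e-06). All deprived cultures were below all controls of the same line. MYAZ16.1e had 22.6, 23.7 and 23.6 CPM, then 23.2, 23 and 23.9 (0, SE 0.06, adjusted p = 0.97). The difference from MYAZ16.1e was past the threshold in Myc310 (-0.23, adjusted p = 0.0292), LM1 (-0.23, adjusted p = 0.0278) and LM1-LM (-0.36, adjusted p = 0.000657). In Myc310 and LM1 it was lost without replicate 1 (adjusted p = 0.158 and 0.115) or 3 (0.173 and 0.101). Both Bst2 and Isg15 carry ISRE letters near the start site, and they moved in opposite directions.

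Of the 81 other pathway genes tested, fewer were higher than lower in each line. In MYAZ16.1e 16 were higher and 20 lower after deprivation, in Myc310 15 and 39, in LM1 17 and 44, and in LM1-LM 19 and 47. Over all genes 27.1%, 33.9%, 35.3% and 35.9% were lower and 26.6%, 32.8%, 35.8% and 36.5% higher. The lean to the lower side in Myc310, LM1 and LM1-LM was seen under each scaling tried and with DESeq2, where the higher and lower genes numbered 15 and 39 to 43, 17 and 45 to 46, and 18 to 19 and 47 to 48. Rsad2, which encodes the antiviral enzyme viperin, was the named effector with the largest change in LM1 and LM1-LM. It had 2, 7 and 3 counts in control LM1 and 52, 51 and 49 after deprivation (log2 fold change 3.61, SE 0.43, adjusted p = 7.78e-09), and 3, 7 and 3, then 49, 43 and 42 in LM1-LM (3.41, SE 0.42, adjusted p = 2.08e-08). In MYAZ16.1e Rsad2 had 6, 9 and 6 counts before and 13, 8 and 5 after. Rsad2 met the count rule for naming through the deprived LM1 and LM1-LM cultures alone, a condition that bears on its selection as an example. Its response differed from that of MYAZ16.1e by 3.26 for LM1 (SE 0.68, adjusted p = 0.000161) and by 3.05 for LM1-LM (SE 0.68, adjusted p = 0.000294).

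Cxcl10 and Ifnb1, which encodes interferon beta, fell outside the rule for naming genes here and were picked out after their values were seen. Cxcl10 had no count in the control cultures of Myc310, LM1 and LM1-LM. After deprivation it had 12, 20 and 20 counts in LM1, or 16.7-fold a control group set at the 3 counts that none detected allows. LM1-LM had 12, 16 and 12 counts, 13.6-fold on that floor. Myc310 gave 4, 1 and 3 counts, 2.79-fold on that floor. These folds leave out the counting error of the deprived cultures, which is wide where the counts are few. MYAZ16.1e went from 55 to 28 counts over its cultures. Ifnb1 had no count in any control or deprived culture of MYAZ16.1e and Myc310 and none in control LM1 and LM1-LM. It had 3, 0 and 7 counts in deprived LM1 and 5, 1 and 2 in deprived LM1-LM, 3.21-fold and 2.72-fold on the same floor, with the same error left out. Of 19 interferon ligands listed 7 had a row, 5 of them any count, and none was high enough to be tested.

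The receptors and their kinases leaned the other way. Ifngr2 went from 20.9 ± 0.472 to 14.5 ± 1.26 CPM (SD, n = 3) in MYAZ16.1e and from 7.08 ± 0.263 to 3.98 ± 0.478 in Myc310. LM1 had 9.23 ± 0.766 CPM before and 3.19 ± 0.436 after, and LM1-LM 9.78 ± 0.876 and 2.99 ± 0.252. The log2 fold changes of Ifngr2 were -0.53, -0.85, -1.49 and -1.67 in that order of lines, with adjusted p of 6.21e-06, 1.32e-07, 1.08e-12 and 5.63e-14. The kinase Tyk2, which serves the type I receptor, rose by 0.16 in MYAZ16.1e (adjusted p = 0.0201) and fell by 0.39, 0.64 and 0.8 in Myc310, LM1 and LM1-LM (adjusted p = 8.49e-07, 1.33e-10 and 1.18e-12). Of the 8 receptors and kinases, 6 were lower in LM1 and 5 in LM1-LM, with none higher.

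The genes that attach ISG15 to its targets did not follow Isg15. All 3 tested were lower in LM1, and 2 in Myc310 and in LM1-LM. Uba7, the activating enzyme, fell by 1.7, 1.88 and 1.68 in Myc310, LM1 and LM1-LM (adjusted p = 0.000227, 0.000228 and 0.00137), and Herc6, the ligase, fell by 0.5, 0.7 and 0.9 (adjusted p = 0.00019, 8.87e-06 and 1.82e-07). Among 5 feedback inhibitors, 3 were higher and 1 lower in each of these lines. Socs3, an inhibitor of JAK kinases, rose by 0.9, 1.08 and 1.28 (adjusted p = 6.7e-10, 1.73e-11 and 2.56e-13), while the phosphatase gene Ptpn6 fell by 1.12, 2.27 and 2.72 (adjusted p = 2.46e-10, 2.02e-15 and 1.92e-16).

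Effectors other than the members were split. Of 38 tested, 22 were lower and 8 higher in LM1, and 24 and 9 in LM1-LM. Pml, the organiser of nuclear bodies, fell by 1.27, 1.62 and 1.58 in Myc310, LM1 and LM1-LM (adjusted p = 5.35e-17, 1.99e-19 and 2.88e-19). It was also lower in deprived MYAZ16.1e (-0.6, adjusted p = 1.62e-08). Irgm1, a GTPase, fell in all 4 lines, by 0.51, 1.25, 1.47 and 1.51 (adjusted p = 0.0132, 4.45e-06, 8.13e-07 and 1.57e-07). Sensors were mixed as well, with Dhx58, a cytosolic RNA helicase, falling by 1.46, 1.51 and 1.78 (adjusted p = 0.00129, 0.00148 and 0.000195) and the DNA-binding Ifi204 rising by 0.89, 1.4 and 1.52 (adjusted p = 2.17e-14, 2.33e-19 and 1.5e-20) in Myc310, LM1 and LM1-LM. In MYAZ16.1e Ifi204 rose as well (0.45, adjusted p = 4.66e-07), and Dhx58 did not pass the test (0.11, adjusted p = 0.824). The leukocyte markers summed to 0.722 to 1.13 CPM in control and 0.372 to 0.874 in deprived LM1, and 0.56 to 0.947 and 0.303 to 0.47 in LM1-LM, with Ptprc at 0 throughout. The fibroblast markers fell from between 14.6 and 17.1 to between 9.33 and 10.1 CPM in LM1, and from between 56.6 and 63 to between 25.9 and 27.3 CPM in LM1-LM. Their part in the result was not tested.

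**Figure D4:**
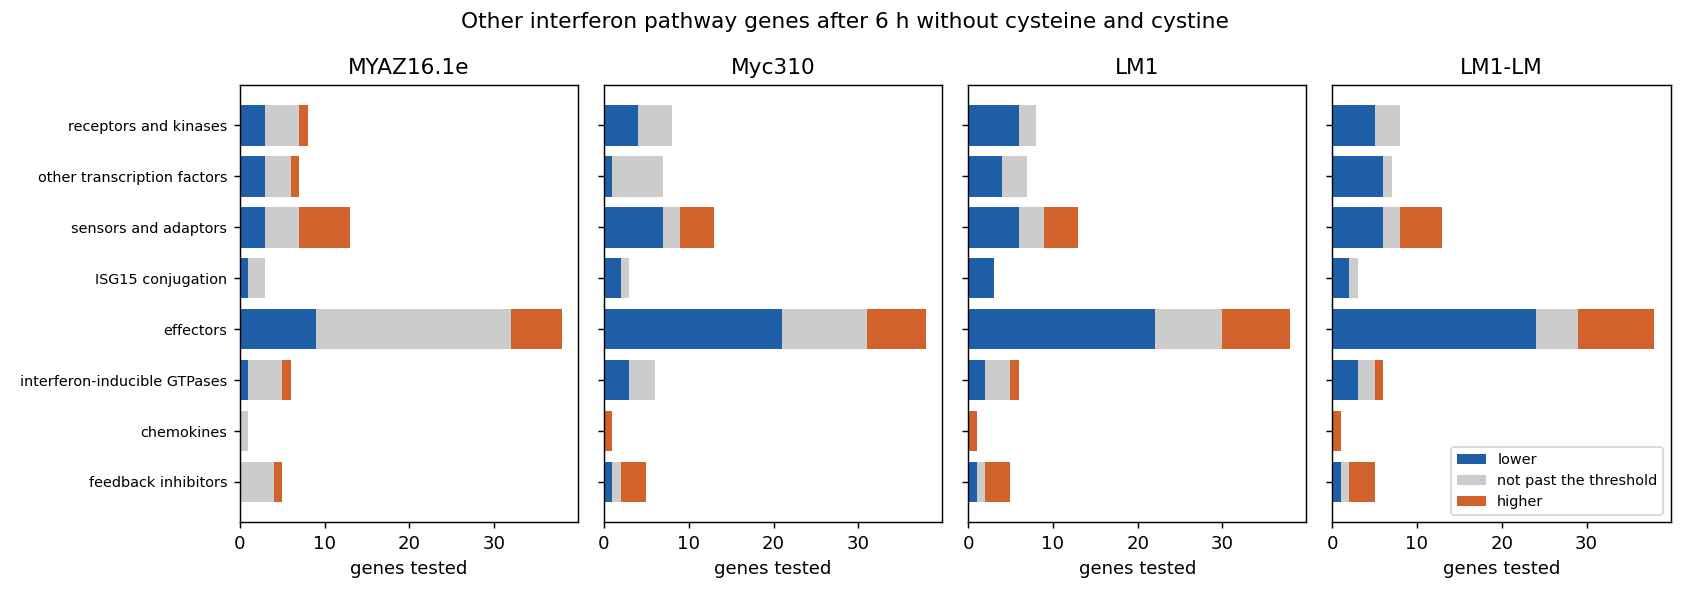
Number of tested pathway genes (x axis) that were lower, higher or not past the threshold after deprivation, by role (y axis) in 4 lines (panels). Lower genes outnumber higher ones among receptors, ISG15 conjugation genes and effectors in Myc310, LM1 and LM1-LM, and chemokines are represented by Cxcl10 alone.

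Across the 15 groups the members did not form a single profile. With the mean z-score of all 9 as reference, Pearson's r was 0.968 for Oasl2, 0.936 for Irf7, 0.791 for Ifit3, 0.734 for Irf9, 0.719 for Ifit1, 0.659 for Isg15, 0.641 for Stat2, 0.457 for Irf1 and -0.203 for Bst2. Each member is part of that mean, and groups that share a line are not independent. The mean z-score was highest in MYAZ12.3i (1.4) and its NDI1 derivative (1.3), followed by LM2 (0.37), and lowest in deprived Myc310 (-0.76) and control Myc310 (-0.69). With deprivation LM1 moved from -0.49 to 0, LM1-LM from -0.52 to 0.04 and MYAZ16.1e from -0.39 to -0.1. Of 13786 genes outside the members, those most like this profile were Oasl1 (r = 0.952), Ifi44 (0.952), Rtp4 (0.932) and Usp18 (0.9), all on the pathway list, followed by Kif19a (0.897), Tmem126b (0.897), Trim9 (0.896) and Thsd7a (0.89), which are not. Oasl1, the closest, had 2.95 ± 0.416 CPM (SD, n = 3) in MYAZ12.3i and 2.87 ± 0.655 in the NDI1 line, 0.791 ± 0.244 in LM2 and 0.0556 ± 0.0484 in Myc310.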

How the data were processed

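Polyadenylated RNA of 45 cultures was sequenced by the study as paired-end reads, and the deposited table gives whole-number counts per gene for each library, which the authors made with STAR and RSEM on GRCm38 per the labels. No column belonged to other samples. The counts were tested with edgeR 4.0.16 (R 4.3.3, TMM scaling, filterByExpr, quasi-likelihood F test, Benjamini-Hochberg adjustment over all genes tested) in 4 fits: subtype over 30 control libraries (Myc310, LM and LM-LM against MYAZ), line over the same 30 libraries, line and medium over 24 libraries including the difference in response from MYAZ16.1e, and the NDI1 line against MYAZ12.3i over 6 libraries. The 4 fits tested 13795, 13795, 13400 and 12841 genes. The fits were tested on simulated data first. The standard error is the log2 fold change divided by the root of F. The 9 members and the lists were chosen with earlier results of these data known. Named genes are the members, in each role at most 3 called pathway genes with the largest change and a mean of at least 20 counts in a group, and the 8 genes most like the members' profile. A pathway gene that this rule also takes is not reported here. Levels are CPM on TMM-scaled library sizes. Replicate numbers do not pair the cultures: in 27 pairs of same-numbered cultures the correlation of deviations lay between -0.06 and 0.06. Within each group, no 2 libraries agreed within sampling noise (chi-square per gene 2.26 to 6.8). Alternatives were RLE and upper-quartile scaling, other filters, a replicate block, DESeq2 1.42.0, limma 3.58.1 (voom, lines as a random effect), counts summed per line, and leaving out each replicate number or line.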

Additional observations from a re-analysis of the deposited data

Results flagged for a closer look

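Differences in the response to cysteine and cystine deprivation from that of MYAZ16.1e passed edgeR's test with Benjamini-Hochberg adjustment for 10 pairs of gene and line, all sharing the MYAZ16.1e libraries. Over all genes 40.3%, 52.2% and 54.8% differed in Myc310, LM1 and LM1-LM, beside 2, 5 and 3 of the 8 members. In Myc310 these were Irf9 (-0.58 on the log2 scale, adjusted p = 0.00933) and Bst2 (-0.23, adjusted p = 0.0292), both falling in Myc310 and not in MYAZ16.1e. In LM1 the response was lower for Irf1 (-0.23, adjusted p = 0.0335), Irf9 (-0.53, adjusted p = 0.0138) and Bst2 (-0.23, adjusted p = 0.0278), and higher for Isg15 (1.57, adjusted p = 0.00151) and Oasl2 (2.67, adjusted p = 0.0054). In LM1-LM it was higher for Isg15 (1.16, adjusted p = 0.00947) and Oasl2 (2.48, adjusted p = 0.00934) and lower for Bst2 (-0.36, adjusted p = 0.000657). Of the 10 calls, Isg15 in LM1 and Bst2 in LM1-LM were kept in each fit that left out 1 replicate number, and the others were lost in at least 1 such fit. Oasl2 entered this fit through the deprived LM1 and LM1-LM cultures, and without the filter its difference had an adjusted p of 0.0332 in LM1 and 0.0537 in LM1-LM. With 3 cultures a group, single outlying cultures were not tested for.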

How the results depend on the processing

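Of 1477 recomputed values of single members, 1317 kept direction and call, 89 kept direction and lost the call, 21 kept direction and gained one, and 50 changed sign. Counts of called members stayed within 1.5 times of the value reported in 151 alternatives and moved further in 31. With at least 10 counts required in every library, which drops the low members, 4 members were called in Myc310 against MYAZ, 4 in LM-LM against MYAZ and 3 in LM2 against Myc310. The same filter left 0 called after deprivation in MYAZ16.1e, 3 in LM1 and 2 in LM1-LM, and 3 (LM1) and 1 (LM1-LM) for the difference from the response of MYAZ16.1e. Isg15 is absent from that count in MYAZ16.1e because it was not tested there. Voom with line as a random effect called 2 members in Myc310 and 4 in LM-LM, and counts summed per line, which leave 3 values a side, called 2 in LM and 2 in LM-LM. Without a filter beyond 1 count, 2 members instead of 5 differed in response in LM1, and DESeq2 called 1 instead of 2 in Myc310. With only the libraries of the lines compared, the Bst2 call between LM1-LM and LM1 was lost, leaving 0. Except where a filter, fewer samples or summing shows it, the cause was not tested. Shares of all genes called in the alternatives are not given, so these counts cannot be set against a background.

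Ifit3 against MYAZ, near 0 in LM, changed sign there without the filter (0.003), with the replicate block (0.01), with summed counts (0.008) and with voom (0.365), and in LM-LM with voom (0.216). Its difference in line means, on CPM without logarithm, turned to -0.002 in LM and -0.068 in LM-LM. Upper-quartile scaling turned the response of Stat2 in Myc310 to -0.003, that of Irf1 in LM1-LM to -0.018 and the difference in response of Stat2 in LM1-LM to -0.005, and a fit on the compared libraries turned that of Bst2 in MYAZ16.1e to 0.003. None of these fitted values was past the threshold.

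Leaving out 1 replicate number or 1 line gave 5 to 9 called members in Myc310 against MYAZ, with 5 without replicate 1, without replicate 3 or without MYAZ12.3i, and 4 to 8 in LM-LM against MYAZ, with 4 without MYAZ12.3i. Against Myc310 the range was 1 to 2 in LM1 and in LM3, with 2 without replicate 3 in both, and 4 to 6 in LM2, with 4 without replicate 3. It was 0 to 1 between LM1-LM and LM1, with 0 without replicate 1 or 2. For differences in response it was 0 to 2 in Myc310, with 0 without replicate 1 or 3, 1 to 3 in LM1, with 1 without replicate 1, and 1 to 2 in LM1-LM, with 1 without replicate 2 or 3.

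Log2 fold changes that changed sign in a leave-out are given by their range. Against MYAZ they were Irf7 (-1.767 to 0.148), Ifit1 (-2.113 to 1.341) and Ifit3 (-0.5 to 0.303) in LM, and Irf7 (-1.416 to 0.124) and Ifit1 (-2.692 to 1.115) in LM-LM. The positive values of Irf7 and Ifit1 arose without MYAZ12.3i. Against Myc310 they were Irf1 (-0.064 to 0.048) and Isg15 (-0.324 to 0.578) in LM1, Bst2 (-0.105 to 0) in LM2, and Stat2 (-0.036 to 0.133), Irf1 (-0.035 to 0.029) and Irf9 (-0.158 to 0.072) in LM3. Between LM1-LM and LM1 they were Ifit3 (-1.434 to 0.174) and Oasl2 (-0.316 to 0.186). After deprivation they were Stat2 (-0.106 to 0.228), Oasl2 (-0.172 to 0.128) and Bst2 (-0.021 to 0.012) in MYAZ16.1e, Stat2 (-0.024 to 0.113) and Irf7 (-0.362 to 0.731) in Myc310, and Stat2 (-0.005 to 0.319) and Irf1 (-0.021 to 0.138) in LM1-LM. For the difference in response they were Stat2 (-0.152 to 0.083), Irf7 (-1.836 to 0.486), Isg15 (-0.105 to 0.994) and Ifit1 (-1.026 to 2.329) in Myc310, and Stat2 (-0.01 to 0.169), Irf1 (-0.14 to 0.087) and Irf7 (-0.315 to 0.6) in LM1-LM. For the NDI1 line they were Irf7 (-0.215 to 0.042), Ifit1 (-0.067 to 0.063) and Oasl2 (-0.054 to 0.098).

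The replicate block called 7 members instead of 8 in Myc310 against MYAZ and as many as reported in each other comparison. Same-numbered cultures did not deviate together, with 0 of 27 correlations over 0.1, so the numbers were not treated as a pairing. Upper-quartile scaling shifted the split over all genes in the difference in response from 3604 higher and 3391 lower to 2871 and 4129 in LM1, and from 3801 and 3544 to 3048 and 4271 in LM1-LM.

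Depth limits Irf7, Ifit1, Ifit3 and Oasl2, which held under 10 counts in many libraries, so that absence of a call for them shows no lack of change. The 3 libraries of a group are technical replicates of 1 isolate, and comparisons of MYAZ with LM or LM-LM rest on 3 lines a side. LM1, LM2 and LM3 share the founder Myc310 and are not independent lines.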
